A study of Homo sapiens with 6 samples.

Results

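KMS-12 is an established human multiple myeloma cell line, that is, a line of malignant plasma cells, and its H3K27ac after 72 h with 1 µM JQ1, relative to DMSO, is described here. H3K27ac was measured by chromatin immunoprecipitation and sequencing (ChIP-seq) with a Diagenode antibody. Every region of the authors' deposited table was taken, that is, 213 regions whose log2 values were below -0.5 in each of the 3 lines and 625 with such values in 2 of them, and none was selected by its value. The KMS-12 JQ1 sample and the KMS-12 DMSO sample are 1 library each, both of genotype WT per the labels, and the table holds 1 log fold change between them for each region. The same value for KMS-11 and RPMI8226, treated and sampled alike, serves as the comparison, which makes 6 samples in all. The labels name no subline of KMS-12 and no replicate culture.

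A value was taken to be the log2 of JQ1 over DMSO, so that -1 stands for 50% of the DMSO level. The file states neither its log base nor which treatment is on top, and all wording on lower H3K27ac depends on this. The file holds no read counts, so the depth is unknown, no error can be attached to a value, and with 1 library per treatment no difference below has a replicate check or a p-value. The table lists only regions that were below 0 in all 3 lines and below -0.5 in at least 2 of them. It therefore cannot show H3K27ac that was higher after JQ1, and the direction of the listed values is fixed by the list.

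JQ1 competes with acetyl-lysine for binding to the bromodomains of BET proteins, which read acetylated histones and help RNA polymerase II into productive elongation. H3K27ac marks active promoters and enhancers. The integrated stress response, several of whose genes stand at the low end of the KMS-12 column, is the program in which the transcription factor ATF4 turns on genes of amino acid uptake and synthesis, tRNA charging and stress signalling. Plasma cells, which secrete large amounts of antibody, rely on the unfolded protein response of the endoplasmic reticulum (ER).

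Promoters are printed for genes that the values below turn on. Each runs from 250 bases before to 50 bases after a RefSeq start in GRCh38.p14, 5′ to 3′ on the strand of the gene. CEBPB (chr20:50190580-50190879, plus strand) and TRIB3 (chr20:381045-381344, plus strand) lie at the regions with the lowest KMS-12 values. SYTL1 (chr1:27341772-27342071, plus strand), IARS1 (chr9:92293648-92293947, minus strand) and CHAC1 (chr15:40953221-40953520, plus strand) lie at regions below -1 and hold the letters TGATGNAA on one strand, the form of the C/EBP-ATF composite element, which binds ATF4 with a C/EBP partner. CALR (chr19:12938359-12938658, plus strand) and GORASP2 (chr2:170929003-170929302, plus strand) are secretory pathway genes whose KMS-12 values were above -0.5 while both other lines were below it, and CALR holds an ER stress element, the site through which the unfolded protein response acts on ER chaperone genes. Capitals mark a match to one of these 2 motifs.
CEBPB: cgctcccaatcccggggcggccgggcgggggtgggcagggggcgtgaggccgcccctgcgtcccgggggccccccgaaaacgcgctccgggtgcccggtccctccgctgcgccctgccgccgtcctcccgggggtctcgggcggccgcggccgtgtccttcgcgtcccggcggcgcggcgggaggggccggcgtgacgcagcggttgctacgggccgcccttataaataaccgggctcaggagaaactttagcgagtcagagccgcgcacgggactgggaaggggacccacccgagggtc
TRIB3: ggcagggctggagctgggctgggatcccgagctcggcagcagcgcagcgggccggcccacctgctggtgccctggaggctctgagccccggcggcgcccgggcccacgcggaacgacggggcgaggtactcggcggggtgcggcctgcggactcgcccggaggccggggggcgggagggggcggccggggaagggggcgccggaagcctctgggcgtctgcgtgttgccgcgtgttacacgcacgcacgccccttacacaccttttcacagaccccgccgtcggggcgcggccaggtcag
SYTL1: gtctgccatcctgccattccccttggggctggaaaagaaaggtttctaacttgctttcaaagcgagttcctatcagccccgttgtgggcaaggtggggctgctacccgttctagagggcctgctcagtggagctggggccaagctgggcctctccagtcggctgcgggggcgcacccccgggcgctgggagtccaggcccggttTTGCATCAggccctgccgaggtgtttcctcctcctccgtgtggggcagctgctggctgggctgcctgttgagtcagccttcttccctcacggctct
IARS1: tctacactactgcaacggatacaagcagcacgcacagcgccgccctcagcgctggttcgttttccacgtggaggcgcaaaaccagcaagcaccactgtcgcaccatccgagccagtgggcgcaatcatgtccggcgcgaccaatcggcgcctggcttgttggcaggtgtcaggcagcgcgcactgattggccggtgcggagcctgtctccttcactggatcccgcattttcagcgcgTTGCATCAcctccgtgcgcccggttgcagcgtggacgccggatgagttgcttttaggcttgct
CHAC1: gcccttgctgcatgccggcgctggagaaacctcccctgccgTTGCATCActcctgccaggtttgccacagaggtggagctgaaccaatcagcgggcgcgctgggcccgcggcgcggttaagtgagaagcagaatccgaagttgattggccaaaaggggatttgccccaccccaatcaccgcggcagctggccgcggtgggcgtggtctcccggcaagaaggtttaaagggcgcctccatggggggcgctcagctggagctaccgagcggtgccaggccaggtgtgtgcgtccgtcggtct
CALR: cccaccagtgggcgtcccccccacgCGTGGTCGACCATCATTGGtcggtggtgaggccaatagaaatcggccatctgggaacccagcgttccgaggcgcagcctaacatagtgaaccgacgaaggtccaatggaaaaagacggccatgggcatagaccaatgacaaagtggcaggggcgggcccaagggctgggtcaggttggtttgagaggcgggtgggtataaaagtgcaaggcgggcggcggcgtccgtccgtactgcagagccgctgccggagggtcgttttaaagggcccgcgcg
GORASP2: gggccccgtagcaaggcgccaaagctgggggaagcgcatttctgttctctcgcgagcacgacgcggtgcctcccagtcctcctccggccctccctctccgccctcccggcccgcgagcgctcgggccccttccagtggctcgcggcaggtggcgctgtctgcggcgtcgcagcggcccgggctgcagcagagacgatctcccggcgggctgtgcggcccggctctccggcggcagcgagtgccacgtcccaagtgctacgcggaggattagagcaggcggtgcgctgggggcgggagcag

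The KMS-12 column differed from the other 2 mainly in its low tail. In the authors' deposited table the KMS-12 values ran between -3.86 and -0.01, with a median of -0.69, which is 62.1% of the DMSO level. The medians were -0.66 in KMS-11 and -0.56 in RPMI8226, so the centre of the KMS-12 column lay within 0.13 of both. Its spread was wider: the SD over all regions was 0.45 in KMS-12, 0.29 in KMS-11 and 0.27 in RPMI8226. Below -0.5 were 77.7% of regions in KMS-12, 83.4% in KMS-11 and 64.3% in RPMI8226. Below -1.5 the authors' deposited table held 57 regions in KMS-12 (6.8%), 11 in KMS-11 (1.31%) and 1 in RPMI8226 (0.119%). Below -2 it held 13 regions in KMS-12 and 0 in each of the other lines, whose lowest values were -1.96 and -1.62. The high end was filled as well, since 36 KMS-12 values were above -0.1, against 17 in KMS-11 and 44 in RPMI8226.

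**Figure D1:**
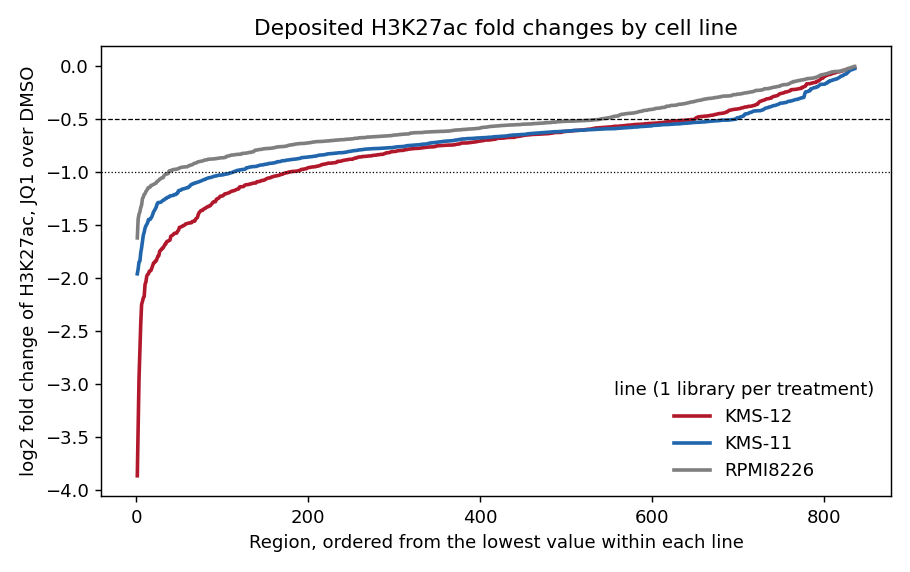
Deposited log2 fold changes of H3K27ac, JQ1 over DMSO (vertical axis), for each line ordered from its own lowest region (horizontal axis), 1 curve per line and 1 library per treatment, with lines at -0.5 (dashed) and -1 (dotted). KMS-12 lies below the other curves at the left, reaching -3.86, against -1.96 in KMS-11 and -1.62 in RPMI8226.

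Because the list asks for 2 lines below -0.5, each column was also read where the other 2 lines alone had met that condition, so that the remaining value had only to be below 0. The authors' deposited table has 400 such regions for KMS-12, 352 for KMS-11 and 512 for RPMI8226. Of these, 53.2% were below -0.5 in KMS-12, 60.5% in KMS-11 and 41.6% in RPMI8226. Below -1 were 15.8% in KMS-12, 14.5% in KMS-11 and 4.1% in RPMI8226. Below -1.5 were 22 of the 400 in KMS-12, 5 of the 352 in KMS-11 and 1 of the 512 in RPMI8226. Read this way, KMS-12 had no larger share below -0.5 than KMS-11, and its low tail remained.

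Over all regions, 178 were below -1 in KMS-12 (21.2%), 113 in KMS-11 (13.5%) and 37 in RPMI8226 (4.42%). Of the 178, by the authors' deposited table, 49 were also below -1 in KMS-11, which is 27.5% of the KMS-12 set and 43.4% of the KMS-11 set. RPMI8226 shared 13 of them, which is 7.3% of the KMS-12 set and 35.1% of the RPMI8226 set. Only 5 regions were below -1 in all 3 lines, and 121 were below -1 in KMS-12 alone. KMS-12 had the lowest of the 3 values in 374 regions (44.6%) and the highest in 240 (28.6%). Across all regions, which share 1 pair of libraries per line and 1 filter, the Spearman correlation of KMS-12 was 0.0782 with KMS-11 and -0.249 with RPMI8226. In the 213 regions below -0.5 in all 3 lines the same values were 0.216 and 0.0898.

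The lowest KMS-12 region covered CEBPB and its antisense gene CEBPB-AS1 (chromosome 20, 50190838 to 50193176). CEBPB encodes a bZIP transcription factor of stress and inflammation that can pair with ATF4. The authors' deposited table gave the region -3.86 in KMS-12, which is 6.87% of the DMSO level, -1.07 in KMS-11 and -0.37 in RPMI8226. Next came the start of TRIB3, a pseudokinase gene induced by ATF4 and CHOP (chromosome 20, 379892 to 381875), with -3.42 in KMS-12, 9.36% of DMSO, against -1.53 in KMS-11 and -0.97 in RPMI8226 (the authors' deposited table). A second region 4592 bp beyond TRIB3 (chromosome 20, 402151 to 402523) had -2.17, -0.59 and -0.28 in the same order of lines in the authors' deposited table. At VEGFA, the gene of the angiogenic growth factor (chromosome 6, 43770531 to 43773241), KMS-12 stood at -2.18, KMS-11 at -0.75 and RPMI8226 at -0.04 in the authors' deposited table. In all 4 regions KMS-12 was lowest and RPMI8226 highest.

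Several low regions lay inside genes. A narrow region inside RNF187, which encodes a ubiquitin ligase (chromosome 1, 228490055 to 228490534), had -2.94 in KMS-12, -0.91 in KMS-11 and -0.03 in RPMI8226 (the authors' deposited table). Inside CLIP1, a microtubule plus-end protein gene (chromosome 12, 122406187 to 122407587), the authors' deposited table listed -2.68, -1.27 and -0.56 in the same order. TCEA1, the gene of an elongation factor that restarts stalled RNA polymerase II, had 2 regions, and the authors' deposited table gave them -2.43 (chromosome 8, 54019875 to 54020579) and -1.14 (chromosome 8, 54021545 to 54022256) in KMS-12. Their values were -1.10 and -0.32 in KMS-11, and -1.06 and -0.80 in RPMI8226. The second reaches a gene boundary, the first lies 1454 bp from one, and their distance to a start was not measured. Both also lie in the readthrough gene LYPLA1-TCEA1, so their reads cannot be divided between these genes. A region inside RTN3, an ER-shaping reticulon gene (chromosome 11, 63689469 to 63690050), had -1.98, -0.82 and -1.33 in KMS-12, KMS-11 and RPMI8226 in the authors' deposited table, while the one at its start (chromosome 11, 63681510 to 63682122) had -0.88, -0.23 and -0.69.

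At gene starts, KIF2C, the gene of a microtubule-depolymerising kinesin of mitosis, had -2.25 in KMS-12, -0.61 in KMS-11 and -0.07 in RPMI8226 (the authors' deposited table). HPDL, a mitochondrial dioxygenase-like gene, stood at -1.93, -0.52 and -0.44 there. GTPBP2, which encodes a GTPase that helps to rescue stalled ribosomes, had 2 regions 689 bp apart, with KMS-12 values of -1.88 and -1.02, KMS-11 values of -0.62 and -0.51 and RPMI8226 values of -0.15 and -0.72 in the authors' deposited table. HLCS, the gene of the enzyme that attaches biotin to carboxylases, had -1.85, -0.64 and -0.79, and SYTL1, a vesicle trafficking gene, -1.84, -0.65 and -1.05 in the authors' deposited table. Other regions among the lowest 25 lay at LOC124903862, HAGHL, IER5L, TRPM8, MARVELD1 and SEL1L, and outside genes nearest to LOC124903490, LINC01719, ADGRL1 and ACBD3. Over the 25, KMS-12 was the lowest line in 25, beside 44.6% of all regions. KMS-11 was below -0.5 in 25 and RPMI8226 in 12, beside 83.4% and 64.3% of all regions. The KMS-11 values ran between -1.59 and -0.52 and the RPMI8226 values between -1.33 and -0.03, so the KMS-12 values of these regions, of which the highest was -1.84, overlapped neither. For RPMI8226, whose lowest value in any region was -1.62, choosing the regions by their KMS-12 value fixed this in advance. For KMS-11, whose lowest value was -1.96, that choice left little room for overlap. Of the 25, 5 were among the 25 lowest of KMS-11 and 3 among the 25 lowest of RPMI8226.

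**Figure D2:**
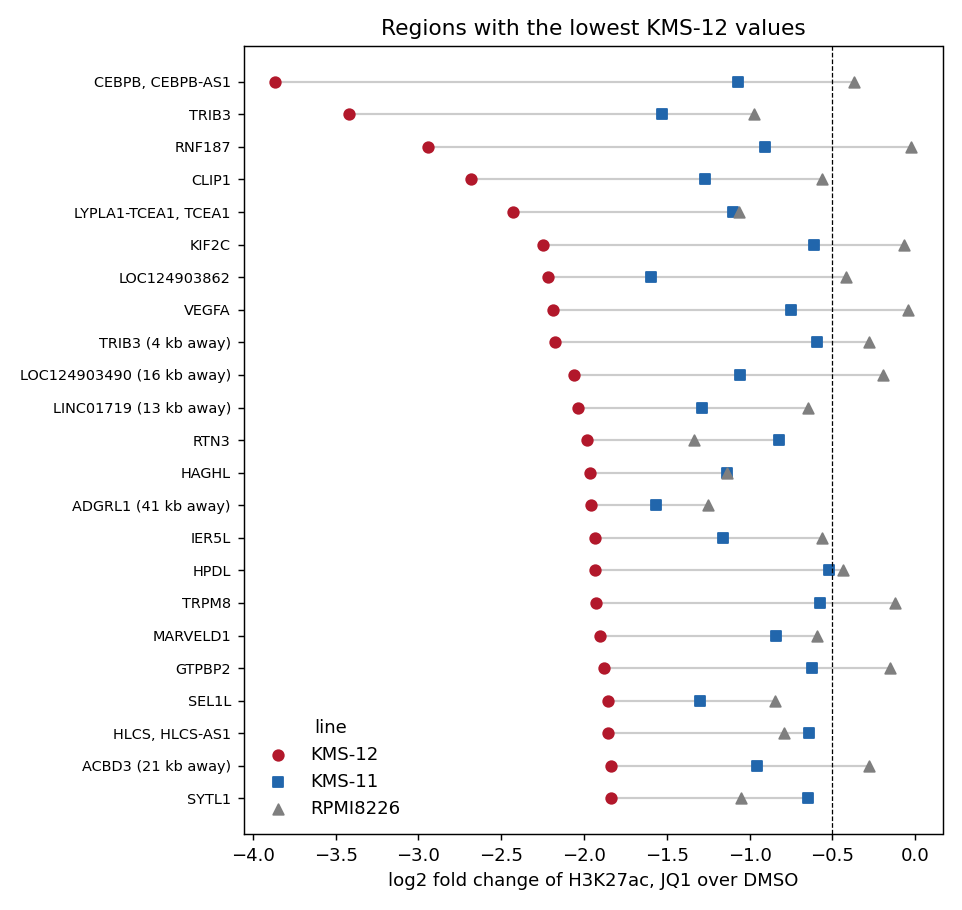
Values of 23 of the lowest 25 regions in KMS-12, labelled by the genes they overlap or by the nearest gene and its distance, with the log2 fold change of H3K27ac, JQ1 over DMSO, on the horizontal axis and 1 symbol per line (1 library per treatment each). The KMS-12 symbol is the leftmost in every row, and 12 regions have RPMI8226 values below -0.5 (dashed line).

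Genes of amino acid supply and the ATF4 stress response were low in KMS-12 more often than the listed genes at large. A gene was given the value of its lowest KMS-12 region, and over all 1029 genes assigned to regions 19.3% were below -1 in KMS-12, 13.2% in KMS-11 and 4.28% in RPMI8226. Of 82 annotated genes on 4 lists (ATF4 and integrated stress response, amino acid transporters, serine, one-carbon, proline and cysteine enzymes, and cytosolic aminoacyl-tRNA synthetases), 30 had a region, and 18 of these 30 were below -1 in KMS-12 (60%), 8 in KMS-11 and 1 in RPMI8226. Their medians were -1.22 in KMS-12, -0.78 in KMS-11 and -0.43 in RPMI8226, beside -0.67, -0.66 and -0.57 over all assigned genes. KMS-12 was the lowest of the 3 lines for 25 of the 30, against 43% of all assigned genes. RPMI8226 was below -0.5 in only 11 of the 30, and in the rest the filter placed KMS-12 below RPMI8226. The count of 25 is therefore set in part by the filter. In the 8 of these genes where both other lines had met the -0.5 condition, 4 were below -1 in KMS-12, against 13.8% of 491 genes, and in the 10 where KMS-12 and RPMI8226 had, 2 were below -1 in KMS-11, against 12.4% of 435. RPMI8226 was below -0.5 in 7 of the 26 genes where KMS-12 and KMS-11 both were, against 41.7% of 621 genes, and was below -1 in 1 of them, against 3.86%. Over the 30 genes KMS-12 was below -0.5 in 29, KMS-11 in 27 and RPMI8226 in 11, against 797 (77.5%), 853 and 667 of the 1029 assigned genes. Where the other lines had met the condition it was 7 of 8 in KMS-12 and 7 of 10 in KMS-11, against 52.7% and 59.5%. These lists were chosen with earlier results of the same table known, so their counts are not independent evidence. Over all lists 6 genes had several regions, and taking the lowest KMS-12 region lowers KMS-12 in the comparison for those.

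Within the ATF4 and integrated stress response list 15 of 29 genes had a region and 9 were below -1 in KMS-12, 5 in KMS-11 and 1 in RPMI8226. Over all assigned genes the shares were 19.3%, 13.2% and 4.28%. Both other lines were below -0.5 in only 5 of the 15, and in the rest the filter required KMS-12 to be below -0.5. Of these 5, 3 were below -1 in KMS-12, against 13.8% of the 491 genes chosen in that way. SESN2, whose product restrains mTORC1 when leucine is short, had -1.52 in KMS-12, -0.88 in KMS-11 and -0.47 in RPMI8226 (the authors' deposited table). EIF4EBP1, the gene of the translation repressor 4E-BP1, had -1.73, -0.52 and -0.21 there (chromosome 8, 38030593 to 38032539). DDIT3, which encodes the stress factor CHOP, stood at -1.48, -0.78 and -0.63, and DDIT4, another brake on mTORC1, at -1.32, -1.02 and -1.09 in the authors' deposited table, so DDIT4 was below -1 in every line. CHAC1, a glutathione-degrading enzyme gene, had -1.32, -0.59 and -0.04, and GADD45A, a growth arrest gene, -1.5, -1.25 and -0.30 in the authors' deposited table. ATF4 itself was at the other end of its list with -0.58 in KMS-12, against -0.82 in KMS-11 and -0.65 in RPMI8226 (the authors' deposited table, chromosome 22, 39519562 to 39521091). STC2, the gene of a secreted glycoprotein, was likewise lower in KMS-11 (-1.17) than in KMS-12 (-0.67) in the authors' deposited table. The members between these 2 groups were BBC3, PPP1R15B, CTH and NFIL3, with KMS-12 values between -0.87 and -0.71. KMS-12 was the lowest line at BBC3, CTH and NFIL3, and RPMI8226 (-0.95) was the lowest at PPP1R15B.

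Of 16 amino acid transporter genes 6 had a region, and 5 were below -1 in KMS-12, 2 in KMS-11 and 0 in RPMI8226. Over all assigned genes the shares were 19.3%, 13.2% and 4.28%. Both other lines were below -0.5 in only 2 of the 6, and 1 of these 2 was below -1 in KMS-12. SLC6A9, the glycine transporter GLYT1, had -1.79 in KMS-12, -0.95 in KMS-11 and -0.13 in RPMI8226 (the authors' deposited table, chromosome 1, 44029860 to 44031458, shared with LOC107984948). SLC1A5, a glutamine transporter gene, had -1.48, -1.20 and -0.45 there. SLC7A5 and SLC3A2 encode the light and heavy chain of the same leucine transporter, and the authors' deposited table gave KMS-12 values of -1.38 and -1.12, KMS-11 values of -0.82 and -0.95 and RPMI8226 values of -0.88 and -0.14. SLC38A2, which imports small neutral amino acids, had -1.12, -0.62 and -0.48. SLC1A4, a neutral amino acid transporter gene, was the exception with -0.42 in KMS-12, above -1.0 in KMS-11 and -0.54 in RPMI8226 (the authors' deposited table).

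Among the 18 enzyme genes of serine, one-carbon, proline and cysteine synthesis, 6 had a region. Of these 6, 2 were below -1 in KMS-12, beside 19.3% of all assigned genes. All 6 were below -0.5 in KMS-12, but both other lines were so in only 1, and for the rest the filter fixed this. The lowest was SHMT2, the mitochondrial serine hydroxymethyltransferase, with -1.59 in KMS-12, -0.91 in KMS-11 and -0.41 in RPMI8226 (the authors' deposited table). PYCR1, the last enzyme of proline synthesis, had -1.11, -0.73 and -0.07 there. ALDH1L2 was lower in KMS-11 (-1.25) than in KMS-12 (-0.91) in the authors' deposited table, and ALDH18A1 had -0.81, -0.53 and -0.51 in KMS-12, KMS-11 and RPMI8226. CTH and PSAT1 had KMS-12 values of -0.82 and -0.79, with RPMI8226 (-0.66 and -0.68) lower than KMS-11 (-0.08 and -0.13). The 4 aminoacyl-tRNA synthetase genes with a region, of 20, had KMS-12 below both other lines. SARS1, the seryl-tRNA synthetase, had -1.75, -0.53 and -0.20, and IARS1, the isoleucyl-tRNA synthetase, -1.65, -0.78 and -0.50 in the authors' deposited table. WARS1 and AARS1 followed with KMS-12 values of -0.89 and -0.88. RPMI8226 was above -0.5 in all 4, so the filter placed KMS-12 below RPMI8226 in each.

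**Figure D3:**
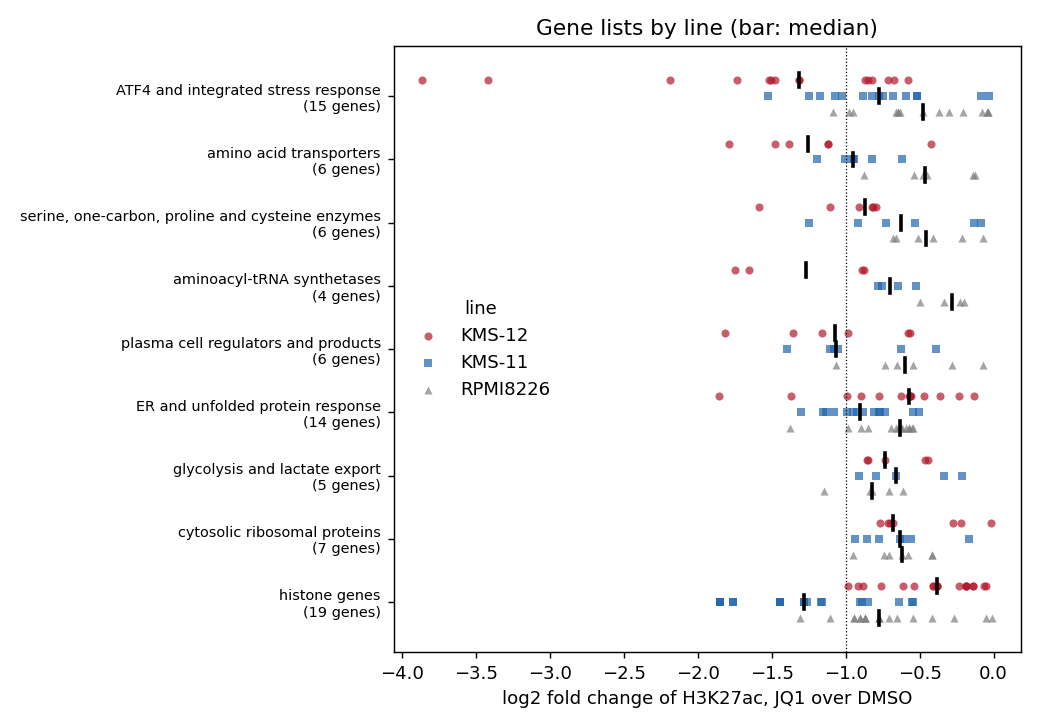
Log2 fold changes of H3K27ac, JQ1 over DMSO (horizontal axis), for the genes of 9 lists that had a region, 1 symbol per gene and line (the gene's lowest KMS-12 region) with a black bar at the median of each line. The 4 upper lists have their KMS-12 medians between -1.32 and -0.87 and their RPMI8226 medians between -0.47 and -0.28, while the histone genes have -0.38 in KMS-12 and -1.28 in KMS-11.

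The ER and unfolded protein response list had a KMS-12 median of -0.57, beside -0.53 over the 491 genes where both other lines were below -0.5. The filter alone can therefore place its KMS-12 median above those of the other lines. Its 14 genes with a region, of 35, were all below -0.5 in KMS-11 and in RPMI8226, and 10 were in KMS-12, beside 52.7% of the 491 genes chosen by the other 2 lines in the same way. Below -1 were 2 of the 14 in KMS-12 (14.3%), near the 13.8% of those 491 genes. In KMS-11 it was 4 of the 14, beside 13.2% of all assigned genes. The medians were -0.57 in KMS-12, -0.90 in KMS-11 and -0.64 in RPMI8226. The 2 genes below -1 in KMS-12 were SEL1L, of the ER-associated degradation complex, and ERN1, the sensor IRE1. SEL1L had -1.85 in KMS-12 inside the gene (chromosome 14, 81529773 to 81530433) but -0.67 at its start (chromosome 14, 81533095 to 81533758) in the authors' deposited table. The ER chaperone and folding genes P4HB, PDIA4, CALR and DNAJC3 had KMS-12 values of -0.47, -0.36, -0.24 and -0.13 in the authors' deposited table. Their KMS-11 values were -0.95, -0.92, -0.77 and -0.54, and their RPMI8226 values -0.99, -0.59, -0.57 and -0.63. These 4 have the highest KMS-12 values of the list, and a KMS-12 value above -0.5 is listed only where both other lines are below it. KMS-12 was the highest line in 5 of the 14 genes (35.7%) and the lowest in 3 (21.4%), beside 29.4% and 43% of all assigned genes. Since both other lines were below -0.5 in all 14, the filter bears on these counts as well. HYOU1, another ER chaperone gene, had -0.90 in KMS-12, -1.13 in KMS-11 and -0.64 in RPMI8226, and CRELD2, an ER stress gene, -0.77, -0.73 and -0.66 in the authors' deposited table.

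Plasma cell genes had 6 of 20 members with a region, and 3 of them were below -1 in KMS-12, 4 in KMS-11 and 1 in RPMI8226, beside 19.3%, 13.2% and 4.28% of all assigned genes. IRF4, a transcription factor that plasma cells and myeloma cells need, had -1.81 in KMS-12, -1.10 in KMS-11 and -1.07 in RPMI8226 (the authors' deposited table, chromosome 6, 391794 to 393844). It had rank 26 among the KMS-12 values, counted from the lowest. BMP6, a growth factor gene, had -1.36, -0.39 and -0.65, and FKBP11, an ER proline isomerase gene, -1.16, -1.05 and -0.73 in the authors' deposited table. MZB1, a chaperone of antibody assembly, was lower in KMS-11 (-1.40) than in KMS-12 (-0.99). XBP1, the unfolded protein response factor, stood at -0.57 in KMS-12 and -1.08 in KMS-11 in the authors' deposited table. Of the 10 plasma cell markers listed to check the cell label, 3 had a region. Of the 6 markers each of B cells, of T and NK cells, of myeloid cells and of stromal and endothelial cells, 0 had one. Among all protein coding genes 824 of 20056 had one, so a count of 0 in a list of 6 carries no weight. A list of regions that were lower after JQ1 cannot test the label.

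FLI1, the ETS factor in the series' title, had -0.58 in KMS-12, -0.62 in KMS-11 and -0.28 in RPMI8226 (the authors' deposited table), in a region that also lies in SENCR. No region overlapped the lncRNA SMILO (LINC00582), MYC or CCND1, the nearest lying 1.72, 3.36 and 0.616 Mb away, and the table does not say why a gene has no region. Of the myeloma driver list 4 of 34 genes had a region. Of these 4, 1 was below -1 in KMS-12, beside 19.3% of all assigned genes. The gene below -1 was PIM3, a survival kinase gene, with 1 region at its start and another 6893 bp outside it. The 2 regions had KMS-12 values of -1.35 and -1.14, KMS-11 values of -0.67 and -0.13 and RPMI8226 values of -0.56 and -0.66 in the authors' deposited table. NSD2, a histone methyltransferase gene, had -0.82, -0.60 and -0.10 there, and IGF1R, a growth factor receptor gene, -0.61, -0.53 and -0.45. The last member, the histone gene H1-4, went the other way, with -0.23 in KMS-12, -1.26 in KMS-11 and -0.55 in RPMI8226.

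Other lists had few regions. Of the 34 growth factor and immediate early genes 7 had one. IER5 and DUSP2, a phosphatase gene that acts on MAP kinases, were lower in KMS-12 (-1.46 and -1.28) than in KMS-11 (-0.35 and -0.59) and RPMI8226 (-0.50 and -0.62) in the authors' deposited table. FOSL2, an AP-1 subunit gene, had -1.18, -1.28 and -0.24. JUNB, JUND, BTG1 and DUSP5 had KMS-12 values between -0.47 and -0.08 in the authors' deposited table, above both other lines. In the MYC network list MXI1, a MYC antagonist, had -1.28 in KMS-12, -0.23 in KMS-11 and -0.60 in RPMI8226, whereas MNT and MXD4, antagonists as well, had KMS-12 values of -0.47 and -0.25 in the authors' deposited table. Of the glycolysis, ribosomal protein, ETS factor, cell cycle and interferon lists, with 5, 7, 2, 1 and 1 genes that had a region, 0 genes were below -1 in KMS-12. RPS29 had -0.01 in KMS-12, -0.85 in KMS-11 and -0.74 in RPMI8226. Lists of lipid synthesis, actin and cytoskeleton, elongation, G protein signalling, p53 and mTORC1 genes had 1, 1, 1, 2, 1 and 2 genes below -1 in KMS-12, of 4, 5, 2, 4, 3 and 3 with a region, beside 19.3% of all assigned genes. The p53 gene, GADD45A, and both mTORC1 genes, SESN2 and DDIT4, are counted in the ATF4 list as well. The NF-kB list had 0 genes with a region.

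Histone genes lay on the opposite side. Of 95 annotated histone genes 19 had a region, and 0 of the 19 were below -1 in KMS-12, against 13 in KMS-11 and 2 in RPMI8226. Over all assigned genes the shares were 19.3%, 13.2% and 4.28%. The medians of the 19 histone genes were -0.38 in KMS-12, -1.28 in KMS-11 and -0.78 in RPMI8226. Where both other lines were below -0.5, 2 of 15 histone genes were so in KMS-12, against 52.7% of all genes chosen in that way. The 7 histone regions of chromosome 6 had KMS-12 values between -0.91 and -0.05. Among them were the regions of H2AC7, H2BC7 and H3C4 (chromosome 6, 26198299 to 26200193) with -0.18 in KMS-12, -1.85 in KMS-11 and -0.87 in RPMI8226, and of H2AC12 and H2BC12 (27145360 to 27147642) with -0.41, -1.76 and -0.90 in the authors' deposited table. H2AC6 with H2BC4 had -0.14, -1.28 and -0.94, and H4C5 -0.05, -0.89 and -0.65 there. The lowest histone genes in KMS-12 were H2AX, the variant of DNA damage signalling, with -0.98, -0.55 and -0.01, and H2BC8 with -0.91, -0.90 and -0.42 in the authors' deposited table. Genes of one cluster share regions, since the 19 genes rest on 13 of them, and the sources used here do not say how reads common to near-identical histone copies were counted.

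Differences between lines were then read per region. A value at least 1 below both other lines was found at 20 regions for KMS-12 (2.39%), 1 for KMS-11 and 0 for RPMI8226. A value at least 0.5 above both was found at 36 regions for KMS-12 (4.3%), 33 for KMS-11 and 117 for RPMI8226. The median of the KMS-12 value minus the mean of the other lines was -0.14. The 12 regions furthest below the lower of the other lines were all among the lowest 25. The difference was -2.79 at CEBPB, -2.04 at RNF187, -1.89 at TRIB3, -1.64 at KIF2C and -1.44 at VEGFA.

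The regions furthest above both other lines were at GORASP2 and BHLHA15. GORASP2, the gene of a protein that stacks and links Golgi membranes (chromosome 2, 170929166 to 170930157), had -0.13 in KMS-12, -1.22 in KMS-11 and -1.40 in RPMI8226 (the authors' deposited table). BHLHA15 encodes MIST1, a transcription factor of secretory cells, and its region (chromosome 7, 98211344 to 98212404) had -0.76, -1.65 and -1.62 there, so that it was below -0.5 in KMS-12 too. TNPO1, a nuclear import receptor gene, had -0.02, -0.86 and -0.78, and HM13, the gene of signal peptide peptidase, -0.03, -0.77 and -0.77 in the authors' deposited table. INCR1 with RIC1, HNRNPC, ANKRD12 and PRKX had KMS-12 values between -0.08 and -0.03, with both other lines at -0.72 or lower in the authors' deposited table. A second region of INCR1, 396 bp away, had -0.97 in KMS-12, -1.03 in KMS-11 and -0.50 in RPMI8226, so INCR1 was not near 0 throughout. The KMS-12 values nearest to 0, between -0.02 and -0.01, also included those at RNF141 with IRAG1-AS1, HSF2BP with RRP1B, MED17 of the Mediator complex, CBFB, a partner of RUNX factors, MYDGF, and a region 27825 bp from MAPK3. The filter required both other lines to be below -0.5 in each of these.

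**Figure D4:**
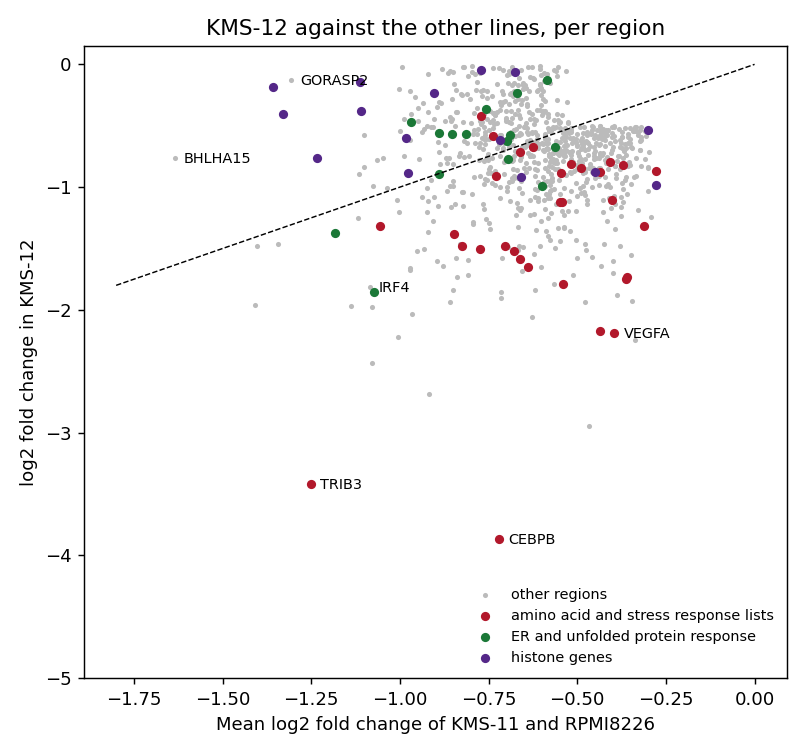
Log2 fold change of H3K27ac in KMS-12 (vertical axis) against the mean of KMS-11 and RPMI8226 (horizontal axis), 1 point per region, with regions of the amino acid and stress response, the ER and unfolded protein response and the histone lists in colour and a dashed line of equal values. Regions of the amino acid and stress response lists lie mostly below the line, with TRIB3 at -3.42 and CEBPB at -3.86, and most histone regions lie above it.

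Low KMS-12 values were more frequent away from gene starts. Regions were sorted by whether they lay within 1 kb of a start in the RefSeq promoter table, within 1 kb of another gene boundary, further inside a gene or further outside. No start was used on chromosome 8, so its 16 regions fall in the other classes. Below -1 in KMS-12 were 18.1% of 591 regions at starts, 21.2% of 104 at other boundaries, 32.9% of 85 inside genes and 36.2% of 58 outside. In KMS-11 the shares were 11.7%, 14.4%, 18.8% and 22.4% in the same order, and in RPMI8226 4.06%, 3.85%, 4.71% and 8.62%. The KMS-12 medians were -0.67, -0.68, -0.79 and -0.77. Both KMS-12 and KMS-11 thus had larger shares below -1 inside and outside genes than at starts, and whether the lines differ in this was not tested. Wider regions also had lower KMS-12 values, with 27.1% of the widest 210 regions below -1 and 16.2% of the narrowest 210. Regions inside and outside genes were narrower, at medians of 999 and 994 bp, than those at starts with 1196 bp.

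**Figure D5:**
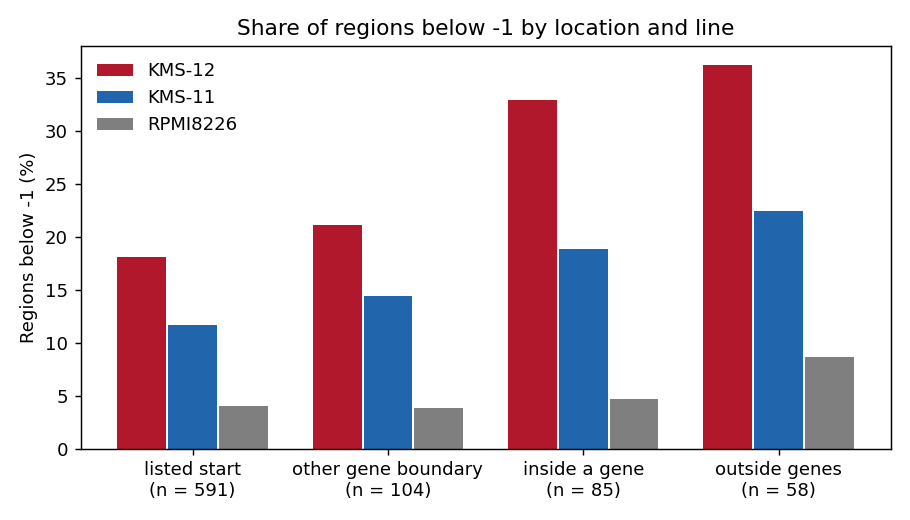
Share of regions below a log2 fold change of -1 (vertical axis, percent) by location relative to RefSeq genes (horizontal axis, with the number of regions) and line. In KMS-12 the share is 18.1% at listed starts and 36.2% outside genes, and in RPMI8226 it is 4.06% and 8.62%.

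Some low regions lay next to each other. Of 64 pairs of neighbouring regions within 30 kb, both members were below -1 in KMS-12 in 10 pairs, in KMS-11 in 6 and in RPMI8226 in 0. Single regions below -1 were 21.2%, 13.5% and 4.42% of all in the same order, and the pair counts follow that order. Some pairs are 2 regions of 1 gene, as at H3-3A with a gap of 359 bp. Across the pairs, the Spearman correlation between the left and right member was 0.365 in KMS-12, 0.189 in KMS-11 and -0.116 in RPMI8226, as a description of regions that share a library. On chromosome 20, the distal TRIB3 region and the start of RBCK1 5581 bp further on, a gene of linear ubiquitination (408104 to 409660), had KMS-12 values of -2.17 and -1.70 in the authors' deposited table. On chromosome 1, RCC2, a mitotic regulator gene (17438036 to 17439530), and LOC124903862 (17440157 to 17442084) lie 627 bp apart, with -1.73 and -2.22 in KMS-12, -1.24 and -1.59 in KMS-11, and -0.44 and -0.42 in RPMI8226 (the authors' deposited table). The 2 regions at IER5L had -1.22 and -1.93 in KMS-12. By chromosome, KMS-12 medians ran between -0.80 on chromosome 9 and -0.62 on chromosome X, except for -0.32 over the 7 regions of chromosome 18.

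The promoter windows, 1 for each gene, were searched for 6 motifs on both strands. Of 138 promoters at KMS-12 regions below -1, 8 held the C/EBP-ATF composite element (5.8%), against 12 of the 659 other promoters at listed regions (1.82%) and 3.75% of the 27305 genes with a RefSeq promoter, of which the first listed by position was read. At KMS-12 values below -1.5 it was 6 of 40, and between -1.5 and -1 it was 2 of 98. The 8 were at LOC124903862, SYTL1, LOC107984948 (in the SLC6A9 region), LOC102724467, TBL1X, IARS1, CHAC1 and PHPT1. In IARS1, CHAC1 and SYTL1 the match is TTGCATCA, 13, 209 and 46 bases before the start. CEBPB and TRIB3 have no match in the windows printed above, which says only that these letters are not there.

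The E-box CACGTG, the site of MYC and its relatives, was in 17.4% of the promoters below -1 in KMS-12, 11.5% of the other listed ones and 7.28% of all genes with a promoter. For the cAMP response element TGACGTCA the shares were 0%, 2.58% and 1.94% in the same order, for the AP-1 site TGANTCA 4.35%, 3.79% and 7.90%, and for the ETS site CCGGAAG 8.70%, 9.71% and 10.6%. The ER stress element was in 0 of 138 and 3 of 659, against 0.0806% of the 27305 genes. The 3 were CALR and the divergent pair SERP1 and EIF2A, whose windows overlap at 1 region. KMS-12 had -0.24 at CALR and -0.39 at SERP1 in the authors' deposited table.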

How the data were processed

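H3K27ac ChIP-seq of KMS-12, KMS-11 and RPMI8226, each with JQ1 and with DMSO, was available as 1 table of regions, whose log2 fold changes per line were computed by the authors before they deposited them. The submitters' processing notes name DESeq2, MACS2, hg38 and GRCh38.p13 without saying what each was used for. The aligner, peak settings and library scaling are not stated in these sources. The deposited number of lines in common matched, in every region, how many of its 3 values were below -0.5, and all values were below 0. Genes came from the RefSeq gene table of GRCh38.p14 (20056 protein coding and 18330 lncRNA genes), assigned where a region overlapped the gene body or else by the nearest boundary, which gave 1029 genes. Starts, strands and sequences came from the RefSeq promoter table of that build (35116 promoters of 27305 genes). A gene with several regions took its lowest KMS-12 value.

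Named were the 25 lowest regions in KMS-12, the 8 nearest 0, the 12 furthest below and the 12 furthest above both other lines, up to 4 lowest members per list, and FLI1, SMILO, MYC, IRF4 and CCND1. Genes beyond these were named after their values were seen. In all, 2 of the 25 lowest regions are not reported here, nor drawn in the plots of single regions, but are counted in all totals. The members and all 27 lists were chosen with earlier results of these data known. No test was run, since each group is 1 library. Alternatives changed the threshold, the regions, the scale of the columns, the lines compared and the gene assignment. Assignment, difference and motif code was tested on simulated data. Python 3.11.15, numpy 2.4.6, pandas 2.3.3 and scipy 1.17.1 were used.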

Additional observations from a re-analysis of the deposited data

How the results depend on the processing

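No paired analysis was possible because each group is 1 library and the result comes from no test. In the 213 regions below -0.5 in all 3 lines the KMS-12 median was -0.78, 213 regions were past -0.5 and 63 below -1, KMS-12 was lowest in 99, its median difference from the other lines was -0.0915, and 5 and 1 regions were at least 1 lower and 0.5 higher. In the 400 regions past -0.5 in both other lines, a setting chosen after seeing the data, the median was -0.54, with 213 past -0.5 and 63 below -1. A fold of -0.75 left 353 regions in place of 651, and -1.5 left 57 in place of 178. With each column minus its median the difference was -0.0645 and 71 regions were at least 0.5 higher. With each column divided by its SD the difference reversed to 0.441 SD, KMS-12 was lowest in 113 regions and 293 were at least 0.5 SD higher, since the wide KMS-12 column is then compressed. Against KMS-11 only, the difference was -0.0423 and 91 regions were higher by 0.5. Against RPMI8226 only, it was -0.167, with 64 regions lower by 1 and 68 higher by 0.5. Halved folds gave 84 lower and 136 higher regions. A fold of -0.75 gave 58 list genes in place of 33. Regions off starts and boundaries were lower by a median difference of -0.101 at 1 kb and -0.146 at 2.5 kb. The C/EBP-ATF share was 3.82% at -0.75, and the E-box shares of the low and the other listed promoters reversed their order there. The Spearman correlation with KMS-11 became 0.216, and with RPMI8226 it reversed to 0.0898, in the 213 regions; the cause was not tested. Of the 27 lists, 26 kept their count within 1.5 times with every gene within 1 kb, 27 with protein coding genes only and 14 at -0.75. Depth and library scaling cannot be examined in this table.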

Other observations

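Several genes outside the lists, named here after their values were seen, also stood low in KMS-12. LONP1, the gene of a protease of the mitochondrial matrix, had -1.68 in KMS-12, -1.29 in KMS-11 and -0.66 in RPMI8226 (the authors' deposited table). HSPD1, the gene of the mitochondrial chaperonin, had -1.58, -1.24 and -0.44 in the same order of lines in the authors' deposited table. A region shared by PCK2, a mitochondrial enzyme gene of phosphoenolpyruvate synthesis, and NRL had -1.65, -0.68 and -0.53 there. LAIR1, which encodes an inhibitory immune receptor, stood at -1.79, -0.72 and -0.41 in the authors' deposited table. In each of these 4 regions KMS-12 was the lowest line and RPMI8226 the highest. At the other end, CTSD, the gene of a lysosomal protease, had -0.07 in KMS-12, -0.87 in KMS-11 and -0.67 in RPMI8226 (the authors' deposited table). TMED9, which encodes a cargo receptor between ER and Golgi, had -0.06, -0.99 and -0.71 in the authors' deposited table.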
